A study of Mus musculus with 12 samples.

Results

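The comparison described here set cultures given sErbB4 alone against cultures given the γ-secretase inhibitor DAPT followed by sErbB4. Its members were the libraries labelled with these treatments, 3 per group, so 6 of the 12 libraries of the series, and the loci with a gene name. All cultures were hippocampal neuronal cultures from WT mouse pups at P4, and pretreatment began after 8 d in culture. The sErbB4 group had 20 nM soluble ErbB4 and no DAPT, and the DAPT + sErbB4 group had 20 µM DAPT before 20 nM sErbB4. Per the study's text, RNA was taken 4 h after sErbB4, and each condition had 3 platings that drew on several mice and litters. How mice were shared among platings is not stated. Libraries are taken here as culture preparations, not single animals. The other 6 libraries, 3 with vehicle and 3 with DAPT alone, entered the fit and are shown beside the main values. Of 21312 loci in the table, 19336 carried a gene name, and 15656 genes passed the filter on low counts.

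Neuregulin 1 (Nrg1) in its Type III form spans the neuronal membrane and can act as a receptor. When ErbB4 binds it, the γ-secretase protease can cut Nrg1 within the membrane and free an intracellular domain that travels to the nucleus, a route called nuclear back signaling. γ-Secretase also cuts Notch receptors, N-cadherin, ErbB4 and many other membrane proteins, and DAPT blocks all of these cuts at once. The comparison therefore holds sErbB4 constant and differs in γ-secretase activity.

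The 6 libraries compared held 46.7 to 54.4 estimated counts in units of 1000000, of which 23.0 to 30.8 fell on named genes. The ribosomal RNA precursor Rn45s took 36 to 44.2% of the named counts. One library stood apart. On the first principal component of the 6, sErbB4 replicate 1 was at -10.2, with sErbB4 replicates 2 and 3 at 37.0 and 41.7 and the DAPT + sErbB4 libraries between -25.7 and -20.3. The totals of called genes, and the counts of some lists, are therefore also given without it. Where a list has no such count, its count may still have changed. Transcripts that mark neurons (Snap25, 161, 173 and 185 CPM in sErbB4 replicates 1 to 3) and astrocytes (Aldh1l1, 174, 188 and 179.9 CPM) were both present, so the cultures held glia as well as neurons. CPM are counts per 1000000 named counts after TMM scaling.

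A gene was called at a Benjamini-Hochberg adjusted p under 0.05 by edgeR's quasi-likelihood test and a fold change (FC) of more than 25% from the lower to the higher group. By this rule 1120 genes, 7.15% of those tested, had the higher level with sErbB4 alone, and 712 (4.55%) had the lower level. Without sErbB4 replicate 1 the counts were 1135 and 867. The median log2 FC was 0.55 among genes called higher and -0.45 among genes called lower, and -0.01 over all genes tested. Of all genes tested 48.1% had a log2 FC above 0, the share to set beside the counts of positive and negative members below. The 7.15% and 4.55% are the shares to set beside the counts of members called higher and lower. At least a 2-fold change was seen for 203 genes called higher and 63 called lower. The libraries of both groups did not overlap for 1112 of the genes called higher and 708 of those called lower, while 38.7% of all genes tested did not overlap. In the following, a log2 FC is sErbB4 minus DAPT + sErbB4 with its SE from the edgeR fit, and library values are given in the order of replicates 1, 2 and 3. In bulk RNA, fewer cells of a type and less RNA per cell cannot be told apart.

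**Figure D1:**
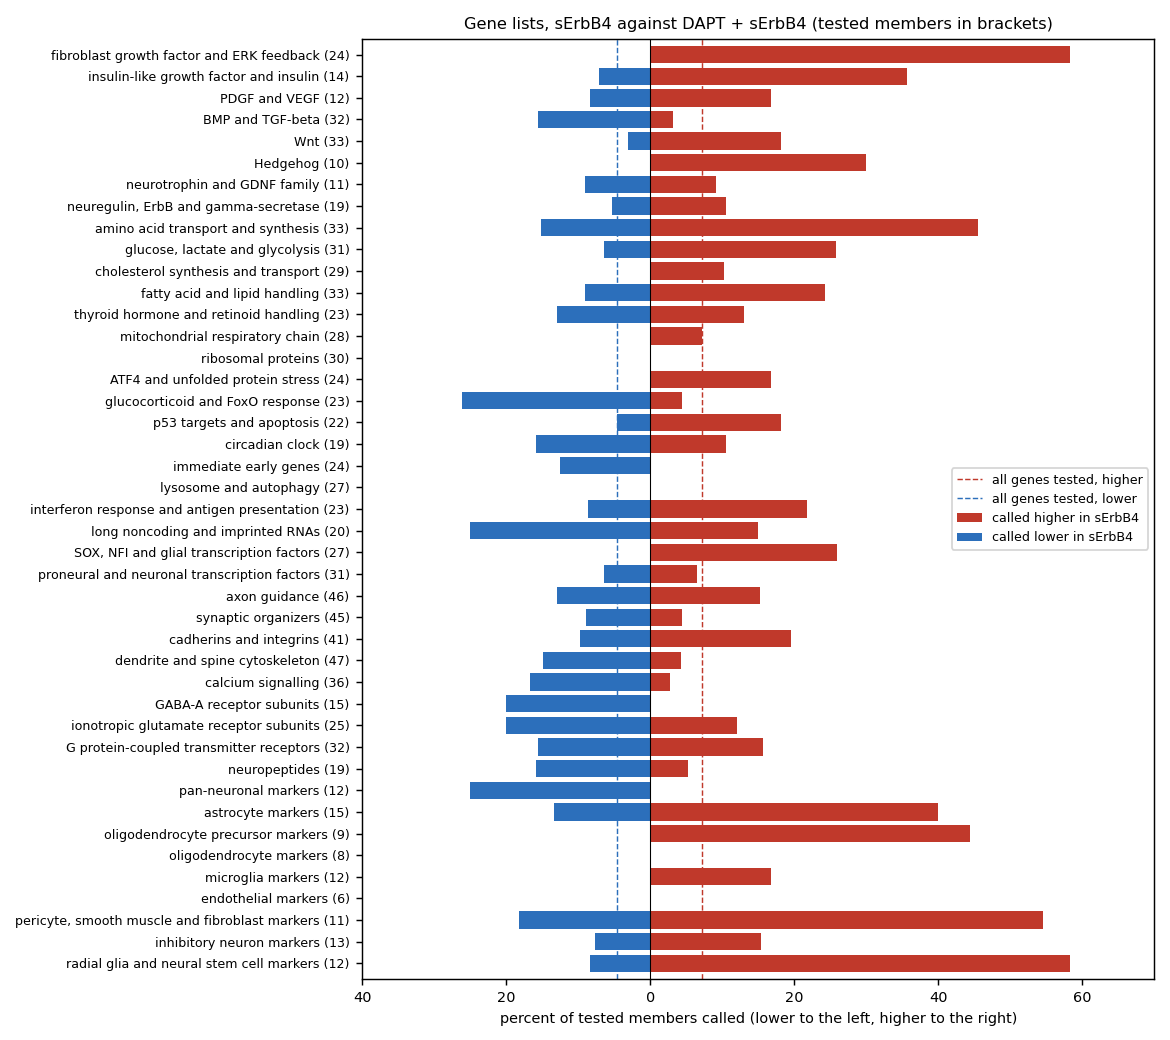
Percent of the tested members of each of 43 gene lists called higher (red, to the right) or lower (blue, to the left) in sErbB4 against DAPT + sErbB4, with the number of tested members in brackets. Dashed lines give the percent over all genes tested, 7.15 higher and 4.55 lower, and the fibroblast growth factor list reaches 58.3 with no member lower.

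Genes of fibroblast growth factor (FGF) signaling were the growth factor group with the highest share of calls. FGF receptors signal through the kinase ERK, which switches on its own inhibitors and the ETS-family factors Etv4 and Etv5. Of 24 tested members of the FGF and ERK feedback list, 14 were called higher (58.3%, and 12 genes without sErbB4 replicate 1) and 0 lower, and the median log2 FC was 0.34. Etv4 stood at 46.5, 45.2 and 49.5 CPM in the sErbB4 libraries and at 13.9, 10.8 and 11.5 CPM in the DAPT + sErbB4 libraries. These values leave a wide gap between the groups, with a log2 FC of 1.97 ± 0.07, adjusted p = 1.2e-08, edgeR. Dusp6, the phosphatase that inactivates ERK, stood at 54.6, 57.8 and 64.5 CPM against 21.3, 22.5 and 22.6 CPM, again without overlap, and its log2 FC was 1.41 ± 0.06, adjusted p = 3.1e-08, edgeR. Among the Sprouty inhibitors of the pathway, Spry1 was at 24.2, 25.7 and 27.1 CPM against 13.9, 13.0 and 12.1 CPM, which is 0.98 ± 0.06, adjusted p = 1.2e-06, edgeR on the log2 scale. Spry2 (0.63 ± 0.05), Spry4 (0.90 ± 0.08) and Etv5 (0.88 ± 0.06) were also higher. On the ligand and receptor side, Fgf1 was higher by 0.72 ± 0.06 and the receptor Fgfr3 by 0.84 ± 0.06, while Fgfr1, the receptor gene that is widely expressed in neurons and glia, had a log2 FC of 0.24 ± 0.05 and was not called. Fgf1, Spry2, Spry4 and Etv5 were chosen after their values were seen.

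Fgfrl1, which encodes an FGF receptor without a kinase domain, had the lowest p of this list. Its libraries read 158, 175 and 167 CPM with sErbB4 and 74.7, 73.5 and 72.8 CPM with DAPT + sErbB4. All 3 sErbB4 libraries lay at more than any DAPT + sErbB4 library, with a log2 FC of 1.18 ± 0.04, adjusted p = 7.7e-09, edgeR. Its RefSeq promoter window (GRCm38.p6, chr5:108693979-108694278, plus strand) is shown because it holds TGGGAA, the letters searched for as the core of an RBPJ site. RBPJ is the DNA-binding partner of the Notch intracellular domain. These letters were present for 27.1% of all genes with a window, 29.4% of those called higher and 29.3% of those called lower. Binding was not tested. The window runs from 250 bases before to 50 bases after the annotated start, and the match, in capitals on the opposite strand, begins at base 18.
Fgfrl1: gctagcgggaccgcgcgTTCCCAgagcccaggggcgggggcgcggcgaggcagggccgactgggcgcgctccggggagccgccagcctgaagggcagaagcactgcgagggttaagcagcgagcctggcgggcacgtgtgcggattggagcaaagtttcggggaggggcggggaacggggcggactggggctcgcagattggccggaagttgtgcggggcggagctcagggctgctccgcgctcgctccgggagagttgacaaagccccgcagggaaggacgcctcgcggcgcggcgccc

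Insulin-like growth factor (IGF) binding proteins, which hold IGFs in the extracellular space, were among the most changed secreted products. Of 14 tested members of the IGF and insulin list, 5 were called higher and 1 lower (0 lower without DAPT + sErbB4 replicate 3, 2 without sErbB4 replicate 3). Igfbp2 was at 1969, 2201 and 2042 CPM in sErbB4 and 675, 677 and 685 CPM in DAPT + sErbB4, and the log2 FC was 1.61 ± 0.04, adjusted p = 1.8e-09, edgeR. Igfbp4 was at 238, 261 and 301 CPM against 99.1, 96.6 and 103 CPM, with 1.42 ± 0.07, adjusted p = 1.4e-07, edgeR on the log2 scale. For both genes the spread within a group was small next to the gap between groups. Igfbp3 (1.82 ± 0.07) and Igfbp5 (0.46 ± 0.06) moved the same way. Igf2, the fetal ligand, read 72.9, 47.1 and 70.3 CPM against 37.8, 38.1 and 38.5 CPM and was called (0.73 ± 0.15, adjusted p = 0.0048, edgeR), with sErbB4 replicate 2 nearest to the other group. The imprinted RNA H19, which lies next to Igf2, was higher by 1.12 ± 0.15, at 4.63, 4.98 and 4.01 CPM against 1.78, 1.95 and 2.49 CPM. Igf2 was chosen after its values were seen.

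Of the 19 tested members of the neuregulin, ErbB and γ-secretase list, 2 were called higher (10.5%) and 1 lower (5.26%). Without sErbB4 replicate 3 there were 3 lower. Hbegf, an EGF-family ligand for Egfr and ErbB4, stood at 40.8, 46.2 and 55.4 CPM against 22.8, 25.5 and 23.0 CPM (1.00 ± 0.09, adjusted p = 1.6e-05, edgeR), and Egfr was higher by 0.39 ± 0.05. Nrg1 itself was lower, at 8.65, 7.63 and 7.49 CPM with sErbB4 against 13.5, 11.9 and 11.9 CPM with DAPT + sErbB4 (-0.65 ± 0.08, adjusted p = 0.0002, edgeR). Erbb4, the gene of the receptor whose ectodomain was added, was at 6.32, 4.66 and 7.32 CPM against 7.18, 7.49 and 7.11 CPM, and the groups overlapped (-0.26 ± 0.13, adjusted p = 0.19, edgeR); without sErbB4 replicate 3 it was called, at -0.41. Among the subunits of γ-secretase, the protease that DAPT inhibits, Psen2 had a log2 FC of -0.15 ± 0.04, Ncstn of 0.13 ± 0.05, Aph1a of 0.19 ± 0.06 and Psenen of -0.09 ± 0.07, and none of these 4 was called. For Psen2 (adjusted p = 0.027, edgeR) and Aph1a (adjusted p = 0.029, edgeR) only the FC fell short of the threshold. In the PDGF and VEGF list, 2 of 12 were higher, Vegfa (0.58 ± 0.07) and the receptor Pdgfra (0.51 ± 0.05), and 1 was lower, the ligand Pdgfd (-0.64 ± 0.07; 2 were lower without sErbB4 replicate 2).

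**Figure D2:**
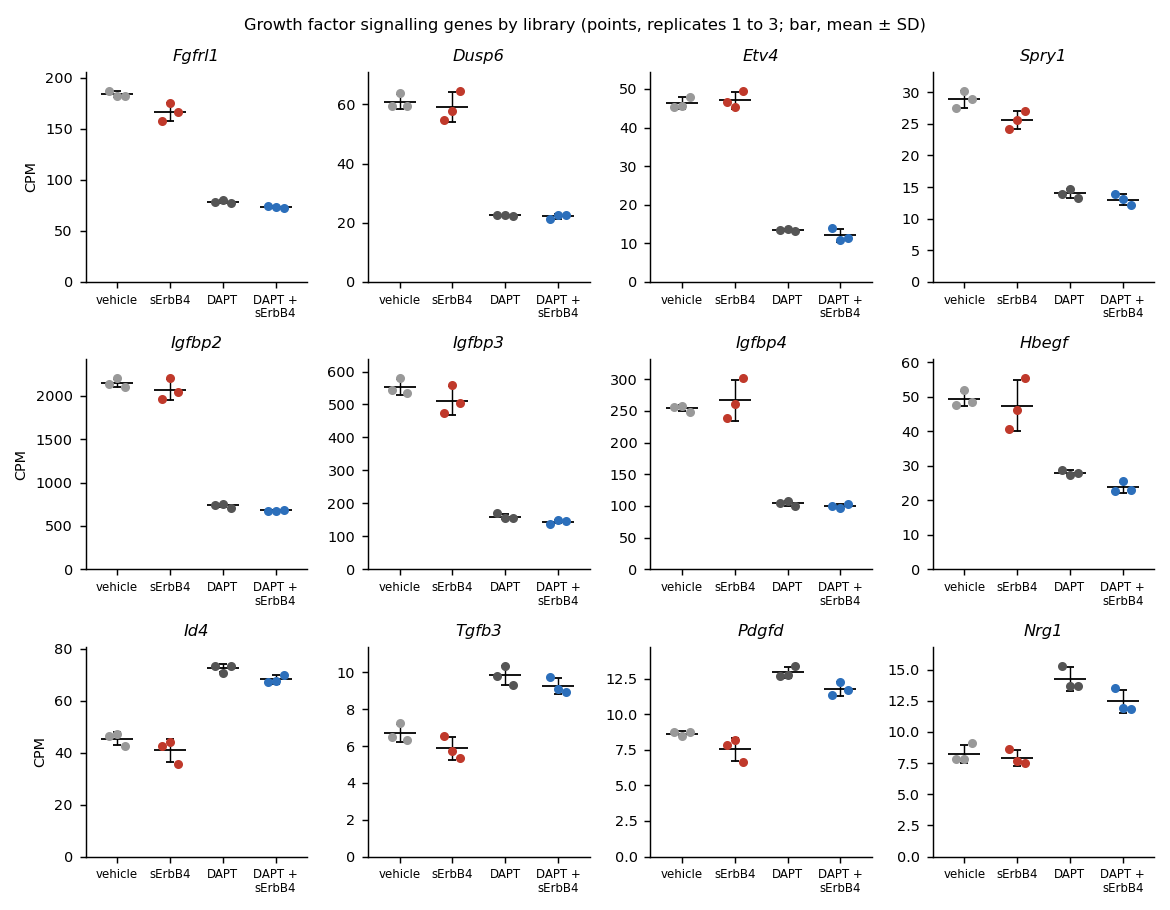
CPM of 12 growth factor signaling genes in each of the 12 libraries, by group, with the group mean ± SD as a bar; each axis starts at 0. In 8 genes (Fgfrl1, Dusp6, Etv4, Spry1, Igfbp2, Igfbp3, Igfbp4, Hbegf) the sErbB4 points lie above the DAPT + sErbB4 points, and in 4 (Id4, Tgfb3, Pdgfd, Nrg1) below.

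Bone morphogenetic proteins (BMPs) and TGF-β are growth factors that signal through Smad proteins. Of 32 tested genes of this list 24 had a negative log2 FC, 5 were called lower and 1 higher (1 to 3 higher as single libraries were left out, 3 without DAPT + sErbB4 replicate 3), with a median log2 FC of -0.12. Id4, a target of BMP signaling that inhibits proneural factors, read 42.5, 44.3 and 35.8 CPM in sErbB4 and 67.2, 67.5 and 70.1 CPM in DAPT + sErbB4 (-0.74 ± 0.07, adjusted p = 1.6e-05, edgeR). The related Id3 was at 382, 414 and 307 CPM against 463, 438 and 441 CPM and was not called (-0.28 ± 0.09, adjusted p = 0.042, edgeR); it was called without sErbB4 replicate 2, at -0.38. The ligands Bmp6 (-0.51 ± 0.08), Bmp4 (-0.49 ± 0.12) and Tgfb3 (-0.66 ± 0.08) were lower, and Smad3, which carries TGF-β signals to the nucleus, was higher (0.41 ± 0.06). Bmp4 was chosen after its values were seen.

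Of 33 Wnt genes 6 were called higher and 1 lower, and 25 had a positive log2 FC (median 0.16). Fzd7, a Wnt receptor, was at 7.33, 8.27 and 8.75 CPM against 4.44, 3.80 and 4.41 CPM (0.95 ± 0.09, adjusted p = 1.4e-05, edgeR), its co-receptor gene Lrp5 was higher by 0.55 ± 0.06, and the ligand Wnt7b by 0.55 ± 0.04. Wnt9a was lower (-0.77 ± 0.11). In the Hedgehog list 3 of 10 were higher (2 higher and 1 lower without sErbB4 replicate 1, and 1 lower without DAPT + sErbB4 replicate 1), among them the co-receptor Boc at 24.4, 24.8 and 23.6 CPM against 16.1, 17.2 and 17.0 CPM (0.53 ± 0.04, adjusted p = 5.4e-06, edgeR) and the receptor and target gene Ptch1 (0.36 ± 0.06). Of 11 neurotrophin and GDNF family genes 1 was called in each direction. The lower one was Bdnf, a neurotrophin released by active neurons, at 29.7, 32.2 and 31.0 CPM against 40.3, 41.8 and 38.8 CPM (-0.38 ± 0.07, adjusted p = 0.0014, edgeR). Without sErbB4 replicate 3 this list had 0 higher and 2 lower, and without sErbB4 replicate 2 it had 2 lower.

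Amino acid transport and synthesis was the metabolic list with the highest share of calls. Of 33 tested genes 15 were called higher (45.5%) and 5 lower (15.2%), or 17 and 5 without sErbB4 replicate 1, and the median log2 FC was 0.31. Slc7a5 and Slc3a2 encode the light and heavy chain of the exchanger that brings in large neutral amino acids. Slc3a2 was at 316, 331 and 359.9 CPM against 201, 207 and 202 CPM (0.72 ± 0.05, adjusted p = 1.8e-06, edgeR). Slc7a5 was at 269, 305 and 365 CPM against 164, 171 and 163 CPM, with sErbB4 replicate 3 the highest of the 6 (0.91 ± 0.09, adjusted p = 1.7e-05, edgeR). Neither gene overlapped between groups. Glutamine carriers of the Slc38 family did not share a direction. Slc38a3, the glial system N carrier, stood at 704, 792 and 668 CPM against 374, 388 and 398 CPM (0.90 ± 0.06, adjusted p = 1.7e-06, edgeR), and Slc38a1, a system A carrier found in neurons, at 69.8, 70.9 and 68.2 CPM against 100.5, 109 and 108 CPM (-0.60 ± 0.04, adjusted p = 1.1e-06, edgeR). Another system A carrier, Slc38a2, was not called (0.05 ± 0.05). Transporters that clear transmitters were higher too, with log2 FCs of 0.82 ± 0.06 for the glycine transporter Slc6a9, 0.60 ± 0.05 for the GABA transporter Slc6a11, and 0.45 ± 0.04 for the glutamate transporter Slc1a3. The other main glial glutamate transporter, Slc1a2 (0.19 ± 0.05), and glutamine synthetase, Glul (0.28 ± 0.05), were not called, although Glul was called without sErbB4 replicate 3, at 0.33.

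The promoter window of Slc3a2 (GRCm38.p6, chr19:8713848-8714147, minus strand, printed in the direction of transcription) is shown for the same 6 letters as that of Fgfrl1. Here the match, in capitals and again on the opposite strand, begins at base 127.
Slc3a2: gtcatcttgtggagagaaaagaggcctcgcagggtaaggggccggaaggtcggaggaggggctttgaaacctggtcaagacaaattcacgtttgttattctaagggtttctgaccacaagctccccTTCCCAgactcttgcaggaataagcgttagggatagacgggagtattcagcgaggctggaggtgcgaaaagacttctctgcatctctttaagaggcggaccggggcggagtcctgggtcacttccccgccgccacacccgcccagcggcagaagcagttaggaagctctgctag

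Several enzymes that build serine, glycine and proline from glycolytic and glutamate carbon were higher. Phgdh, which starts serine synthesis, was at 209.6, 231 and 247 CPM against 159, 158 and 160.4 CPM (0.53 ± 0.06, adjusted p = 5.8e-05, edgeR). The next enzyme, Psat1, was higher by 0.48 ± 0.04, and Shmt2, which makes glycine in mitochondria, by 0.54 ± 0.06, while Psph, the last step to serine, had 0.26 ± 0.06 and was not called. For proline, Aldh18a1, the first enzyme of its synthesis, read 71.6, 77.6 and 76.7 CPM against 48.9, 51.2 and 49.9 CPM (0.59 ± 0.05, adjusted p = 4.0e-06, edgeR), and Pycr1, a reductase that completes it, 9.54, 10.7 and 13.7 CPM against 5.74, 5.83 and 5.87 CPM (0.96 ± 0.11, adjusted p = 8.7e-05, edgeR). Prodh, which breaks proline down, was lower, at 53.1, 53.2 and 36.4 CPM against 82.4, 86.6 and 87.8 CPM (-0.85 ± 0.12, adjusted p = 0.00029, edgeR). Replicate 3 was the lowest of the sErbB4 libraries for Prodh and the highest for Pycr1. These genes and Slc7a5, Slc38a2, Slc6a11 and Slc1a3 were chosen after their values were seen.

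Of 31 genes of glucose, lactate and glycolysis, 8 were called higher and 2 lower (1 lower without sErbB4 replicate 2 or without DAPT + sErbB4 replicate 2). Eno1, the enolase of most cells, was at 784, 906 and 808 CPM against 519, 524 and 530.5 CPM (0.67 ± 0.05, adjusted p = 3.4e-06, edgeR). Aldoc, the astrocytic aldolase (0.67 ± 0.05), Gys1, a glycogen synthase (0.69 ± 0.05), Hk2, a hexokinase (0.63 ± 0.06), and Pkm, the pyruvate kinase (0.49 ± 0.05), were higher too. The largest change of the list was that of Txnip, which restrains glucose uptake, at 25.8, 27.9 and 28.2 CPM with sErbB4 against 67.7, 63.5 and 68.5 CPM with DAPT + sErbB4 (-1.29 ± 0.05, adjusted p = 1.9e-08, edgeR). Of 28 nuclear genes of the respiratory chain 27 had a positive log2 FC (median 0.21), while 48.1% of all genes tested did. Called higher were 2 (1 without sErbB4 replicate 2), among them Cyc1 (0.41 ± 0.04), a cytochrome. These 2 are 7.14% of the list, near the 7.15% of all genes tested. Most of the other members had an adjusted p under 0.05 with a positive log2 FC too small for a call. No ribosomal protein gene was called among 30 by edgeR (median 0.01), with 6 at an unadjusted p under 0.05 and 0 called by DESeq2 or limma. Some of these 6 also had an adjusted p under 0.05 and missed a call by FC alone. Hk2 and Pkm were chosen after their values were seen.

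Lipid genes changed in both directions, with 8 of 33 fatty acid genes higher and 3 lower (10 and 3 without sErbB4 replicate 1). Elovl2, which elongates polyunsaturated fatty acids, was at 30.9, 32.2 and 33.0 CPM against 15.3, 15.8 and 17.4 CPM (0.98 ± 0.05, adjusted p = 2.6e-07, edgeR). The acyl-CoA synthetases split. Acsbg1 was higher (0.60 ± 0.05) and Acsl3, at 102, 105 and 87.2 CPM against 169.9, 176 and 184 CPM, was lower (-0.85 ± 0.06, adjusted p = 2.7e-06, edgeR). Fatty acid binding proteins Fabp7 (1.86 ± 0.06) and Fabp5 (0.62 ± 0.05) and the desaturase Fads2 (0.42 ± 0.04) were higher. Srebf1, a transcription factor that drives lipid synthesis genes, read 65.0, 66.8 and 66.1 CPM against 27.5, 28.1 and 28.1 CPM (1.24 ± 0.04, adjusted p = 4.7e-09, edgeR). In the cholesterol list, which contains Srebf1, 3 of 29 were called higher and 0 lower (1 lower without sErbB4 replicate 2). Its median log2 FC was 0.06. Fabp5 and Fads2 were chosen after their values were seen.

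Dio2, which converts the prohormone T4 into active T3, was at 64.7, 69.3 and 70.9 CPM against 29.9, 30.1 and 31.6 CPM (1.16 ± 0.05, adjusted p = 1.9e-08, edgeR), and Slco1c1, which carries T4 into cells, was higher by 1.99 ± 0.05. For retinoids, Stra6, the receptor of the plasma retinol carrier, was higher (0.58 ± 0.13) and the retinaldehyde dehydrogenase Aldh1a1 lower (-0.34 ± 0.05; -0.28 and not called without sErbB4 replicate 3). Crabp2, which binds retinoic acid, had no count in any sErbB4 library and 12 to 18 counts in the DAPT + sErbB4 libraries (0.70, 0.43 and 0.64 CPM). Against a floor of 3 counts per library it was at least 4.81-fold lower. Over all 23 thyroid hormone and retinoid genes 3 were called in each direction. Stra6 was chosen after its values were seen.

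**Figure D3:**
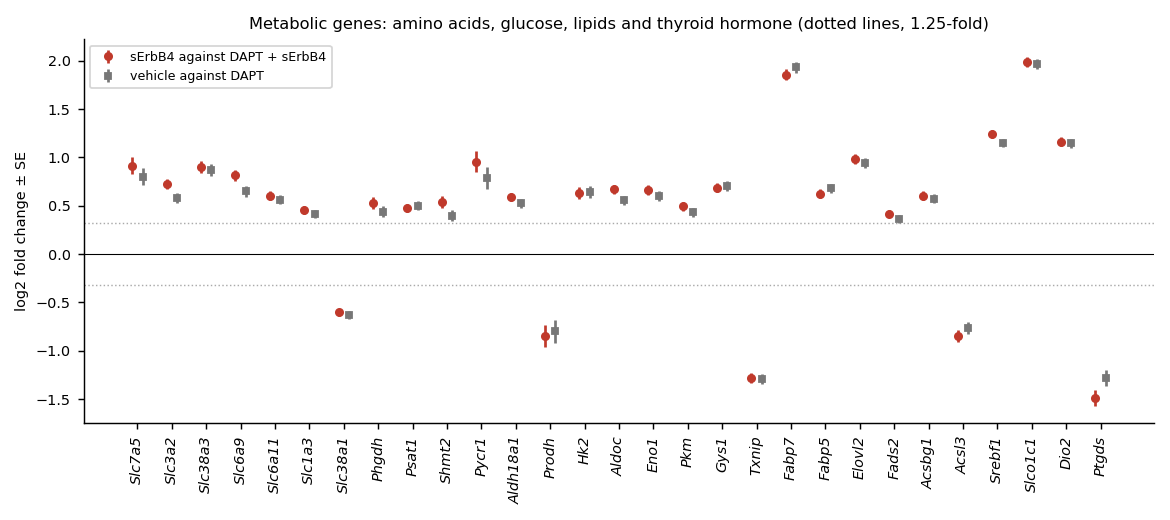
Log2 FC ± SE of 29 metabolic genes in sErbB4 against DAPT + sErbB4 (red circles) and in vehicle against DAPT (grey squares), which share no library; dotted lines mark the FC needed for a call. For each gene both symbols lie on the same side of 0, from Slco1c1 (1.99 and 1.96) to Ptgds (-1.48 and -1.29).

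Of 23 genes of the FoxO and glucocorticoid response, a list of targets that also holds the factors and receptors themselves, 6 were called lower (26.1%) and 1 higher. FoxO factors act when insulin and IGF signaling is low. Fbxo32, a ubiquitin ligase gene that FoxO factors switch on, was at 2.42, 2.71 and 1.88 CPM against 5.04, 5.57 and 5.19 CPM (-1.16 ± 0.12, adjusted p = 2.6e-05, edgeR). The stress sensor Sesn1 was at 20.3, 23.7 and 21.0 CPM against 32.3, 33.7 and 32.9 CPM (-0.60 ± 0.07, adjusted p = 0.00011, edgeR), and its relative Sesn3 was lower by -0.42 ± 0.05. Ccng2, an unconventional cyclin (-0.52 ± 0.06), Gadd45g (-0.58 ± 0.06) and the metallothionein Mt1 (-0.48 ± 0.07) were lower as well, and the cell cycle inhibitor Cdkn1a was higher (0.39 ± 0.04). Another sestrin, Sesn2, which is a target of ATF4, changed the opposite way from the other two (0.49 ± 0.06). In the list of ATF4 and unfolded protein genes 4 of 24 were higher, among them Atf5 (0.47 ± 0.05), and 0 lower. Sesn3 and Mt1 were chosen after their values were seen.

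The promoter windows of Txnip and Sesn1 are shown because both were lower and hold the letters TGTTTAC, the core of a FoxO site (capitals, on either strand). That of Txnip (GRCm38.p6, chr3:96557707-96558006, plus strand) has the match on the opposite strand from base 130, and that of Sesn1 (chr10:41810324-41810623, plus strand, the first of 2 annotated starts) has it on the same strand from base 273.
Txnip: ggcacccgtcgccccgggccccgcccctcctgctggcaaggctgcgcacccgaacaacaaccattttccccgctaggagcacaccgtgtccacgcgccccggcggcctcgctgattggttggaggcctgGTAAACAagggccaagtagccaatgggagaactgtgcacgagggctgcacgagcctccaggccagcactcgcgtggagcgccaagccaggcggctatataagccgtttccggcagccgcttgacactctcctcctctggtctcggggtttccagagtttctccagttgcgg
Sesn1: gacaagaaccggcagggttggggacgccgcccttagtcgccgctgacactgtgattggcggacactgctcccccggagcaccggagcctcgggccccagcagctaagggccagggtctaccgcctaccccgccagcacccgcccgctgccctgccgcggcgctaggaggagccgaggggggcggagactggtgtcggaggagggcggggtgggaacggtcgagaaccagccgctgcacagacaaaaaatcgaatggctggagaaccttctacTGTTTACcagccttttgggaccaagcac

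RefSeq promoter windows were found for 11888 of the 15656 genes tested, 872 of those called higher and 550 of those called lower, and were searched on both strands for 8 short motifs. The RBPJ core TGGGAA was present for 29.4% of the genes called higher, 29.3% of those called lower and 27.1% of all. The ETS core CCGGAA was present for 24.0% and 16.9%, against 28.5% of all, and in 2 of 11 of the FGF list genes called higher that had a window. TGTTTAC was present for 3.10% of genes called higher, 5.64% of those called lower (31 genes) and 3.12% of all. The AP-1 motif TGANTCA was found for 8.60%, 7.45% and 6.20%, and the E-box CACGTG for 8.37%, 11.8% and 11.3%. For the E2F core GCGGGAA the shares were 10.3%, 6.55% and 9.36%, for the cAMP response element TGACGTCA 2.75%, 3.09% and 3.46%, and for the N-box CACNAG of HES repressors 42.3%, 47.3% and 45.2%. The RBPJ and E2F cores share 5 letters but cannot match at the same place, and the shares are descriptions of these windows without a test.

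Genes called lower had the longer median span in the genome, which is given as a description without a test. GENCODE vM21 (GRCm38) gave a span for 97.6% of genes tested, with a median of 23.0 kb, against 24.0 kb for genes called higher and 37.1 kb for genes called lower. Spans over 100 kb were found for 26.9% of the genes called lower, 12.7% of those called higher and 14.6% of all. Among the 520 genes over 300 kb, 58 were called lower (11.2%) and 20 higher (3.85%), with a median log2 FC of -0.14. Nrg1 is one of these (chr8:31814551-32884029, minus strand).

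**Figure D4:**
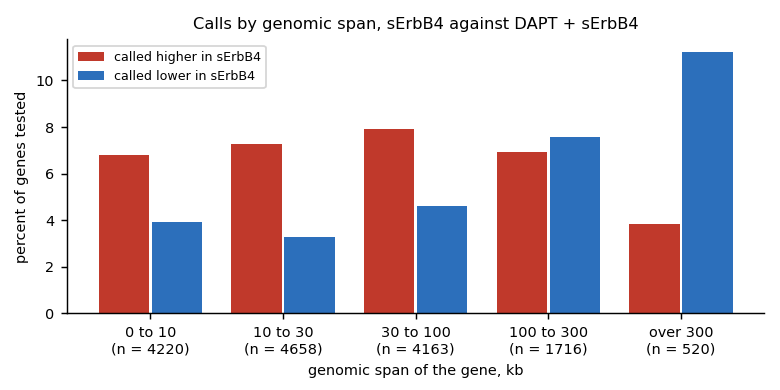
Percent of genes tested that were called higher (red) or lower (blue) in sErbB4 against DAPT + sErbB4, by genomic span of the gene in kb, with the number of genes per bin. Lower calls are at 3.93% up to 10 kb, 3.26% from 10 to 30 kb and 11.2% over 300 kb, and higher calls are at 3.85% in the last bin.

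Among immediate early genes, which neurons transcribe within minutes to hours of activity, 3 of 24 were called lower and 0 higher (median -0.19). Egr3 was at 7.57, 8.62 and 8.67 CPM against 12.7, 11.7 and 11.8 CPM (-0.54 ± 0.07, adjusted p = 0.0002, edgeR) and Nr4a3 at 24.4, 22.8 and 28.7 CPM against 34.5, 38.9 and 34.6 CPM (-0.51 ± 0.08, adjusted p = 0.0009, edgeR). Without sErbB4 replicate 3 there were 8 called lower, and without sErbB4 replicate 1 there were 2. In the circadian list Bhlhe41 (0.78 ± 0.06) and Bhlhe40 (0.38 ± 0.08), repressors that bind E-boxes, were higher. Per3 (-0.33 ± 0.10), Dbp (-0.33 ± 0.10) and Nfil3 (-0.35 ± 0.11) were lower, so that 3 of 19 were called lower (0 without sErbB4 replicate 3 or DAPT + sErbB4 replicate 2, and 1 without DAPT + sErbB4 replicate 3). Each of these 3 lost its call when sErbB4 replicate 3 or DAPT + sErbB4 replicate 2 was left out. The core repressor genes of the clock, Per1 (0.00 ± 0.06), Per2 (-0.08 ± 0.08), Cry1 (-0.11 ± 0.06) and Cry2 (-0.19 ± 0.04), were not called. Interferon-related genes did not share a direction. The membrane antiviral genes Ifitm3, at 147, 172 and 159 CPM against 92.9, 89.9 and 89.3 CPM (0.81 ± 0.07, adjusted p = 5.5e-06, edgeR), and Ifitm2 (0.49 ± 0.06) and the GTPase Gbp3 (0.91 ± 0.09) were higher, and Ifit2 (-0.79 ± 0.08) and Ifit3 (-0.79 ± 0.15) were lower, with 5 of 23 higher and 2 lower in all. Of the imprinted genes, Peg10 stood at 12.0, 11.9 and 12.9 CPM against 20.2, 20.8 and 20.6 CPM (-0.75 ± 0.05, adjusted p = 1.5e-06, edgeR) and Plagl1, a zinc finger factor gene, was lower by -0.75 ± 0.07, in a list of noncoding and imprinted RNAs with 3 of 20 higher and 5 lower (8 lower without sErbB4 replicate 1, 3 without sErbB4 replicate 2). No lysosome or autophagy gene was called among 27 by edgeR (median -0.09), with 15 at an unadjusted p under 0.05, 0 called by DESeq2 and 2 by limma. Some of these 15 also had an adjusted p under 0.05, most of them with a negative log2 FC, and missed a call by FC alone. Leaving out sErbB4 replicate 2 gave 2 called lower, DAPT + sErbB4 replicate 1 gave 1, and sErbB4 replicate 3 or DAPT + sErbB4 replicate 3 gave 1 higher. Ifit3, Nfil3, Per1, Per2 and Cry1 were chosen after their values were seen.

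Of 27 SOX, NFI and glial transcription factors 7 were called higher and 0 lower (1 lower without sErbB4 replicate 2). Sox3, a factor of neural progenitors, was at 61.1, 63.8 and 56.5 CPM against 27.7, 27.9 and 27.4 CPM (1.13 ± 0.06, adjusted p = 1.4e-07, edgeR). Zeb1, a repressor active in progenitors and glia (0.61 ± 0.07), and Sox8 (0.43 ± 0.06) were also higher. Among 31 proneural and neuronal factors 2 were called in each direction (1 higher and 4 lower without sErbB4 replicate 1). That is 6.45% each way, beside 7.15% called higher and 4.55% called lower of all genes tested. The lower ones were Mef2c, an activity-dependent factor of neurons, at 26.4, 27.5 and 26.9 CPM against 36.2, 35.4 and 33.0 CPM (-0.37 ± 0.05, adjusted p = 0.00039, edgeR), and Rfx3 (-0.48 ± 0.08), a regulator of cilia genes. Without sErbB4 replicate 2 there were 5 lower and 1 higher, without DAPT + sErbB4 replicate 2 there were 4 lower, and 1 was higher without DAPT + sErbB4 replicate 1 or 3. Sox8 was chosen after its values were seen.

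Genes that neurons and glia use to find and hold partners were called in both directions. In axon guidance 7 of 46 were higher and 6 lower (3 lower without sErbB4 replicate 2, DAPT + sErbB4 replicate 1 or DAPT + sErbB4 replicate 3). Of the 46, 30 had a negative log2 FC (median -0.10). The members named next are the 4 called with the lowest p, all of them higher. The netrin gene Ntn1 read 23.4, 24.4 and 24.9 CPM against 14.4, 13.1 and 13.1 CPM (0.85 ± 0.05, adjusted p = 3.1e-07, edgeR), and Ntn4 (0.62 ± 0.04), the ephrin receptor Ephb2 (0.45 ± 0.05) and the semaphorin receptor Plxnb1 (0.37 ± 0.05) were higher as well. Among the integrin subunits Itga6, of a laminin receptor, was higher, at 78.7, 80.7 and 76.5 CPM against 48.4, 51.3 and 49.8 CPM (0.66 ± 0.04, adjusted p = 1.2e-06, edgeR), as were Itga5 (0.85 ± 0.08) and Itgav (0.64 ± 0.06), while Itgb1, the most widely shared β subunit, was not called (0.24 ± 0.05). Cadherins split, with Cdh20 (0.51 ± 0.04) and Cdh10 (0.44 ± 0.04) higher and Cdh9, at 6.64, 6.58 and 5.85 CPM against 12.6, 12.1 and 13.8 CPM, lower (-1.01 ± 0.10, adjusted p = 2.1e-05, edgeR). Cadherins and integrins together had 8 of 41 higher and 4 lower, or 8 and 8 without sErbB4 replicate 1. The astrocyte connexins Gja1 (282, 304 and 267 CPM against 420.0, 442 and 443 CPM, -0.61 ± 0.05, adjusted p = 9.7e-06, edgeR) and Gjb6 (-0.97 ± 0.14) were lower. Itgav, Cdh9, Gja1 and Gjb6 were chosen after their values were seen.

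The pan-neuronal markers, which belong to all neurons, had a median log2 FC of -0.25, with 11 of 12 negative and 3 called lower (1 without sErbB4 replicate 1, 5 without sErbB4 replicate 3). Their summed level was 1849 to 1977 CPM in the sErbB4 libraries and 2211 to 2338 CPM in the DAPT + sErbB4 libraries. Of the neuronal genes that follow, many were lower, as these markers were, and others were higher. The part of this marker level in them, and in the neuronal genes given earlier, was not tested. Nefl, a neurofilament, was at 148, 161 and 133 CPM against 205, 193 and 198 CPM (-0.43 ± 0.07, adjusted p = 0.0011, edgeR), and Stmn2, a regulator of axonal microtubules, at 379, 409.9 and 418 CPM against 527, 502 and 508 CPM (-0.35 ± 0.04, adjusted p = 0.00012, edgeR). Without sErbB4 replicate 1 Stmn2 was at -0.31 and Uchl1, a neuronal ubiquitin hydrolase (-0.34 ± 0.04), at -0.30, and neither was called; Uchl1 was not called without DAPT + sErbB4 replicate 1 either (-0.30). Snap25, of the vesicle fusion machinery, had a log2 FC of -0.32 ± 0.05, adjusted p = 0.0013, edgeR and was not called, but was without sErbB4 replicate 3 (-0.37), DAPT + sErbB4 replicate 2 (-0.32) or DAPT + sErbB4 replicate 3 (-0.33).

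In the dendrite and spine cytoskeleton 7 of 47 were lower and 2 higher. The postsynaptic scaffold gene Dlg2 was at 34.9, 34.6 and 32.4 CPM against 44.1, 44.0 and 44.4 CPM (-0.38 ± 0.06, adjusted p = 0.00069, edgeR). The 2 higher members were the tubulin genes Tubb2a (0.55 ± 0.08) and Tubb2b (0.44 ± 0.09), close paralogs between which reads may be split uncertainly. Of 45 synaptic organizers 4 were lower (8.89%) and 2 higher (4.44%). There were 6 lower without sErbB4 replicate 1, and 1 higher without sErbB4 replicate 2. Slitrk3, an adhesion protein of inhibitory synapses, was lower, at 12.7, 11.5 and 11.6 CPM against 15.7, 16.0 and 16.0 CPM (-0.41 ± 0.05, adjusted p = 5.7e-05, edgeR). Nlgn1, a neuroligin of excitatory synapses, was lower (-0.37 ± 0.08; -0.28 and not called without DAPT + sErbB4 replicate 2), and the latrophilin Adgrl2 was higher (0.48 ± 0.04). Of 36 calcium signaling genes 6 were lower and 1 higher (8 lower without sErbB4 replicate 1, 0 higher without DAPT + sErbB4 replicate 1 or 2). Rasgrf1, a calcium-responsive Ras activator, was at 9.90, 9.80 and 10.8 CPM against 14.96, 14.2 and 15.1 CPM (-0.54 ± 0.08, adjusted p = 0.00043, edgeR), and the sodium-calcium exchanger Slc8a1 was lower by -0.50 ± 0.12. Tubb2b was chosen after its values were seen.

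The GABA-A receptor list, which also holds the subunits of the GABA-B receptor and the scaffold gephyrin, had a median log2 FC of -0.23, with 12 of 15 negative, 3 called lower and 0 higher. Among the lower ones was Gabra5, a subunit of extrasynaptic receptors, at 35.4, 38.6 and 38.9 CPM against 51.4, 47.5 and 46.8 CPM (-0.37 ± 0.05, adjusted p = 0.00029, edgeR), and the groups did not overlap. Without DAPT + sErbB4 replicate 1 there were 5 called lower, and 1 was called higher without it, DAPT + sErbB4 replicate 2, sErbB4 replicate 1 or sErbB4 replicate 3.

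The NMDA receptor subunits moved apart. Grin2c, the subunit of cerebellar neurons and astrocytes, was higher, at 11.8, 10.0 and 9.16 CPM against 3.83, 3.91 and 3.81 CPM (1.42 ± 0.10, adjusted p = 1.8e-06, edgeR). The obligatory subunit Grin1 was at 78.1, 74.6 and 75.5 CPM against 95.5, 97.2 and 93.4 CPM (-0.33 ± 0.06, adjusted p = 0.0024, edgeR), and Grin2b at 35.4, 20.4 and 30.5 CPM against 42.3, 43.7 and 40.4 CPM (-0.56 ± 0.15, adjusted p = 0.017, edgeR). Grin2a was lower by -0.45 ± 0.14. Each of these 3 calls was lost when certain single libraries were left out. For Grin1 the groups did not overlap, and its adjusted p was at most 0.0121 (edgeR) in those fits, so only its FC fell short of the threshold. Grin1 was not called without sErbB4 replicate 2 (-0.31), sErbB4 replicate 3 (-0.32) or DAPT + sErbB4 replicate 2 (-0.31), Grin2b was not without DAPT + sErbB4 replicate 2 (-0.53; -0.35 without sErbB4 replicate 2), and Grin2a was not without sErbB4 replicate 2 (-0.27) or without any one of DAPT + sErbB4 replicates 1 to 3 (-0.41, -0.46 and -0.48). Of the auxiliary AMPA receptor subunits, Cacng4 (0.60 ± 0.06) and Cacng5 (0.65 ± 0.07) were higher and Cnih2 lower, at 20.5, 18.3 and 20.7 CPM against 30.6, 28.9 and 39.3 CPM (-0.74 ± 0.16, adjusted p = 0.0067, edgeR). Over all 25 glutamate receptor genes 3 were higher and 5 lower (3 lower without sErbB4 replicate 2, 2 without DAPT + sErbB4 replicate 2). Grin1, Grin2a, Grin2b and Cnih2 were chosen after their values were seen.

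Among transmitter receptors coupled to G proteins 5 of 32 were called in each direction (3 lower without sErbB4 replicate 2, DAPT + sErbB4 replicate 2 or DAPT + sErbB4 replicate 3). Grm3, a metabotropic glutamate receptor that astrocytes also carry, was at 14.8, 12.3 and 17.1 CPM against 5.35, 5.32 and 5.73 CPM (1.42 ± 0.10, adjusted p = 2.7e-06, edgeR). The β1 adrenergic receptor gene Adrb1 was at 21.2, 25.0 and 23.1 CPM against 9.70, 10.3 and 9.50 CPM (1.23 ± 0.06, adjusted p = 1.6e-07, edgeR), and Adra1b, an α1 receptor, was higher by 0.55 ± 0.07. The cannabinoid receptor gene Cnr1 was lower, at 25.2, 26.5 and 27.6 CPM against 36.7, 36.02 and 35.6 CPM (-0.45 ± 0.06, adjusted p = 0.00015, edgeR). Neuropeptides had 3 of 19 lower and 1 higher (5 lower without sErbB4 replicate 3, 2 higher without DAPT + sErbB4 replicate 1). The interneuron peptide genes Cck (55.9, 61.9 and 68.3 CPM against 105, 97.4 and 91.8 CPM, -0.66 ± 0.10, adjusted p = 0.00043, edgeR) and Sst (-0.46 ± 0.06) and the granin Scg2 (-0.43 ± 0.05) were lower, and Pdyn, the dynorphin precursor, was higher (0.72 ± 0.08).

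Of 15 astrocyte markers 6 were higher and 2 lower, and their summed level was 8954 to 9391 CPM in sErbB4 and 8983 to 9355 CPM in DAPT + sErbB4. Aldh1l1 stood at 174, 188 and 179.9 CPM against 118, 115 and 121 CPM (0.61 ± 0.05, adjusted p = 5.5e-06, edgeR) and the bicarbonate transporter Slc4a4 was higher by 0.63 ± 0.05, while Gfap, the astrocyte intermediate filament, was at 3720.1, 3927 and 3724 CPM against 4684, 4493 and 4738 CPM and was not called (-0.29 ± 0.05, adjusted p = 0.00092, edgeR). Of 12 radial glia and neural stem cell markers 7 were higher and 1 lower. Nes, the intermediate filament nestin, was at 102, 101 and 103 CPM against 63.2, 63.8 and 63.4 CPM (0.68 ± 0.03, adjusted p = 1.3e-07, edgeR), Tnc was higher by 0.67 ± 0.05, Prom1 was lower, at 10.2, 10.8 and 10.3 CPM against 20.4, 21.3 and 22.9 CPM (-1.05 ± 0.06, adjusted p = 2.7e-07, edgeR), and Vim overlapped between groups (-0.08 ± 0.06). Oligodendrocyte precursor markers had 4 of 9 higher, Cspg4 among them (0.58 ± 0.06), with a median log2 FC of 0.21. Their summed levels were 1051 to 1134 CPM against 574 to 599 CPM, a larger gap than that of the median member. No marker of mature oligodendrocytes was called among 8 by edgeR (1 higher without sErbB4 replicate 3), with 3 at an unadjusted p under 0.05 and 0 called by DESeq2 or limma. Pericyte, smooth muscle and fibroblast markers had 6 of 11 higher and 2 lower, with Col3a1 at 0.52 ± 0.05. Microglia markers had 2 of 12 higher, Cx3cr1 at 3.38, 2.27 and 3.72 CPM against 1.44, 1.27 and 1.49 CPM (1.15 ± 0.19, adjusted p = 0.001, edgeR) being the one that was called in every fit that left out 1 library, and 1 was called without sErbB4 replicate 3 or DAPT + sErbB4 replicate 3. Endothelial markers summed to 5.60 to 7.29 CPM and 5.12 to 7.26 CPM and none of 6 was called by edgeR (1 higher without DAPT + sErbB4 replicate 1, 1 lower without DAPT + sErbB4 replicate 3), with 0 at an unadjusted p under 0.05 and 0 called by DESeq2 or limma. Inhibitory neuron markers had 2 of 13 higher (1 without sErbB4 replicate 2, DAPT + sErbB4 replicate 1 or DAPT + sErbB4 replicate 2) and 1 lower. The part of these marker levels in the other results was not tested. Slc4a4 and Tnc were chosen after their values were seen.

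Where the mean was 5 CPM or more, the genes at both ends of the log2 FC range were of varied function. The highest log2 FCs were those of Vtn, the adhesion protein vitronectin (2.36 ± 0.13), Tgm1, a transglutaminase (2.32 ± 0.09), and Kcng4, a modifier of potassium channels (2.24 ± 0.07). Btbd17 was at 63.8, 77.0 and 70.4 CPM against 17.9, 15.9 and 16.6 CPM (2.07 ± 0.08, adjusted p = 1.8e-08, edgeR). Gdf15, a stress-induced cytokine, was at 8.13, 6.74 and 10.1 CPM against 2.09, 2.28 and 1.60 CPM (2.06 ± 0.19, adjusted p = 1.4e-05, edgeR), with no overlap but a wide spread within sErbB4. Lyn, a Src-family kinase, stood at 30.4, 33.1 and 33.7 CPM against 9.31, 9.92 and 10.6 CPM (1.70 ± 0.05, adjusted p = 4.3e-09, edgeR). Inka2 (1.79 ± 0.08), an inhibitor of the kinase Pak4, and Nfkbiz (1.65 ± 0.06), an atypical IκB protein, were also higher. At the other end, the lowest log2 FC was that of Ass1, argininosuccinate synthase of the amino acid list, at 3.26, 2.75 and 0.041 CPM against 20.4, 27.0 and 31.5 CPM (-3.67 ± 0.62, adjusted p = 0.0012, edgeR), with sErbB4 replicate 3 nearly without counts. Ahnak, a giant scaffold protein gene, was at 6.32, 3.26 and 4.17 CPM against 14.7, 17.5 and 16.5 CPM (-1.84 ± 0.16, adjusted p = 1.1e-05, edgeR), and Lgi4, a ligand that glia secrete, at 3.38, 3.45 and 3.68 CPM against 11.1, 9.85 and 10.8 CPM (-1.59 ± 0.07, adjusted p = 6.5e-08, edgeR). Traf1, an adaptor of TNF receptors (-1.20 ± 0.10), Ccdc190 (-1.07 ± 0.07) and the cartilage matrix gene Ucma (-1.11 ± 0.14) were lower too.

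The same genes can be read in the cultures that had no sErbB4. In vehicle against DAPT, 1083 genes were called higher (6.92%) and 730 lower (4.66%). Of the 1120 genes called higher in sErbB4 against DAPT + sErbB4, 850 were also called higher there, of the 712 called lower 419 were also called lower, and 0 genes were called in opposite directions. These comparisons share no library. Etv4 was at 45.2, 45.7 and 48.0 CPM with vehicle and 13.6, 13.7 and 13.2 CPM with DAPT (log2 FC 1.78 against 1.97 under sErbB4), Igfbp2 at 2138, 2202 and 2102 CPM and 742, 754 and 712 CPM (1.54 against 1.61), and Nrg1 at 7.87, 7.81 and 9.10 CPM and 15.3, 13.7 and 13.7 CPM (-0.78 against -0.65). The FGF list had 13 higher and 0 lower in vehicle against DAPT, the amino acid list 14 and 4, the FoxO and glucocorticoid list 0 and 6, and the GABA-A list 1 and 3. Other lists had less similar counts. The respiratory chain list had 7 higher in vehicle against DAPT and 2 in sErbB4 against DAPT + sErbB4, the Hedgehog list 1 and 3. In the same order, 7 and 3 immediate early genes, 7 and 4 synaptic organizers and 2 and 6 axon guidance genes were called lower. These differences between counts were not tested.

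Whether the difference made by DAPT depended on sErbB4 was tested with the interaction term, the log2 FC of sErbB4 against DAPT + sErbB4 less that of vehicle against DAPT. By edgeR 1 gene was called (0.00639% of those tested), and 4 were by DESeq2. Leaving out DAPT replicate 3 gave 3 genes, and leaving out DAPT replicate 2, sErbB4 replicate 3 or DAPT + sErbB4 replicate 3 gave 2. In the edgeR fit of all libraries 565 of the 15656 genes tested had an unadjusted p under 0.05. This share is below the 0.05 that p values reach where nothing differs. Among the 565 were 122 of the 1832 genes called in the main comparison, which were chosen on libraries that also enter the interaction. Igf2, which differed by 0.73 with sErbB4 and by 0.04 without it, had an interaction of 0.69 ± 0.22 (adjusted p = 1, edgeR). For Cnih2 (-0.74 and 0.02) the interaction was -0.76 ± 0.23 (adjusted p = 1, edgeR). Eln, the elastin gene, was at 26.0, 26.1 and 24.9 CPM against 16.3, 16.0 and 15.7 CPM with sErbB4 and at 25.7, 23.9 and 22.9 CPM against 20.2, 21.1 and 19.8 CPM without it, an interaction of 0.43 ± 0.07 (adjusted p = 0.27, edgeR). Cox20, an assembly factor of cytochrome oxidase, was at 13.6, 17.2 and 12.8 CPM with vehicle and between 5.94 and 8.25 CPM in each of the other libraries, an interaction of -0.93 ± 0.15 (adjusted p = 0.27, edgeR). These 4 genes did not pass the adjusted threshold.

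The gene that did was Htd2, a mitochondrial fatty acid synthesis enzyme known to be made from a transcript that it shares with Rpp14. It had no count in any sErbB4 library, and its CPM were 3.13, 2.70 and 3.78 with vehicle, 2.65, 3.40 and 3.27 with DAPT and 2.44, 3.11 and 4.13 with DAPT + sErbB4 (56 to 116 counts). Against a floor of 3 counts per library it was at least 26.3-fold lower in sErbB4 than in DAPT + sErbB4. Whether reads of the shared transcript were assigned to Rpp14 in place of Htd2 in these libraries was not tested, so the 0, this bound and the interaction hold for the deposited values and may not hold for the transcript. Rpp14, a subunit of RNase P, was at 19.7, 20.4 and 21.7 CPM in sErbB4 and 16.0, 17.7 and 15.1 CPM in DAPT + sErbB4 (0.34 ± 0.07, adjusted p = 0.003, edgeR; not called without sErbB4 replicate 3, 0.30, or DAPT + sErbB4 replicate 3, 0.29), and at 15.5 to 18.4 CPM in the other 6 libraries. The sum of both genes was 19.7, 20.4 and 21.7 CPM in sErbB4 and 18.5, 20.8 and 19.2 CPM in DAPT + sErbB4, so the groups overlapped in the sum.

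**Figure D5:**
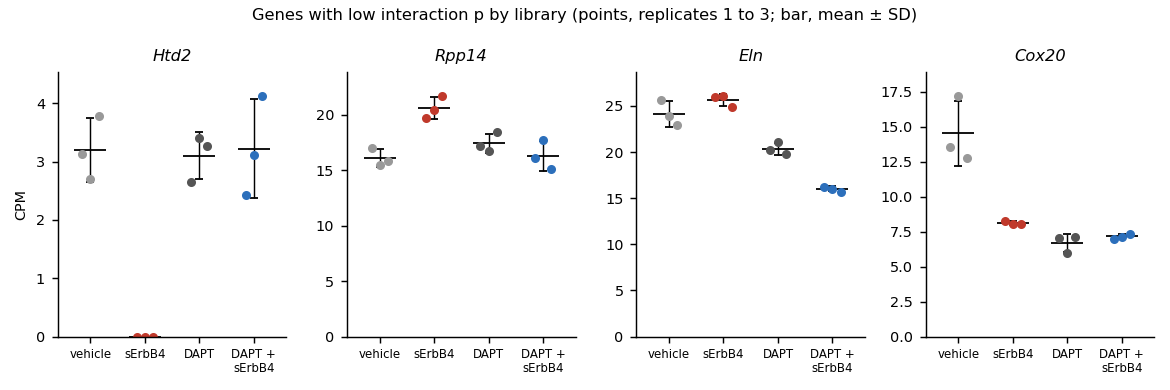
CPM of Htd2, Rpp14, Eln and Cox20 in each of the 12 libraries, by group, with the group mean ± SD as a bar; each axis starts at 0. Htd2 is at 0 in the 3 sErbB4 libraries and above 2 CPM in the other 9, where Rpp14 is lower than in the sErbB4 libraries.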

How the data were processed

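Libraries were prepared from poly-A RNA of hippocampal cultures (WT, P4). Per the labels and the study's methods, the authors used Trimmomatic for trimming, HISAT2 for alignment to mm10, StringTie for assembly, with unannotated loci allowed, and IsoformSwitchAnalyzeR for gene values. Versions are not given in the sources used here. What they deposited are estimated counts of each gene in each library, without normalization.

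Groups were taken from the sample titles. Values were rounded to whole numbers, and loci with no gene name (43.4 to 51.8% of the counts of a library) were left out. In units of 1000000, library totals ranged from 36.5 to 54.4, with 18.7 to 30.8 on named genes. After filterByExpr and TMM scaling, edgeR 4.0.16 (R 4.3.3) fitted 4 group means with 8 residual degrees of freedom, and its quasi-likelihood test was used with Benjamini-Hochberg adjustment over 15656 genes. Calls needed an adjusted p under 0.05 and an FC above 1.25. The SE is the log2 FC divided by the root of the F statistic. With 3 libraries per group p values measure the spread between culture preparations, and an exact permutation test of a single gene could not go below 0.1. The floor of 3 counts covers counting error only. No batch is given in the labels.

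The comparison, the 43 gene lists and the 8 motifs were chosen with earlier results of these data known. Named genes are a subset of those given by a rule. The rule takes the 15 highest and 15 lowest log2 FCs among called genes without overlap whose mean reached 5 CPM, the 4 called members with the lowest p and the 2 uncalled members with the highest mean of each list, the 10 lowest p values of the interaction, and Nrg1, Erbb4 and the γ-secretase subunits. Genes of the rule whose call was lost with a single library were mostly counted and not named, and a few other genes are counted in their lists but not reported here. Gene spans came from GENCODE vM21 and promoters from RefSeq, both on GRCm38, the assembly of mm10.

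Replicate numbers are not stated to pair libraries. Over the 2000 genes with the highest mean, deviations from the group means correlated between libraries of the same number at r of -0.0588, 0.251 and -0.258 for sErbB4 and DAPT + sErbB4, so these were not treated as paired, and at 0.256, 0.332 and 0.12 for vehicle and DAPT. Alternatives were another scaling, no filter, DESeq2 1.42.0, limma 3.58.1 on log2(CPM + 2) with cyclic loess, only the 6 libraries compared, the replicate number as a block, Rn45s left out, unnamed loci kept, and each library left out in turn. The edgeR fit was tested on simulated data.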

Additional observations from a re-analysis of the deposited data

Results flagged for a closer look

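Htd2 was singled out because its difference between cultures without and with DAPT was not the same with and without sErbB4. The interaction was -9.41 on the log2 scale (adjusted p = 0.0016, edgeR, 3 libraries per group), a fitted value that depends on the prior count since the gene had no count in the sErbB4 libraries. The adjacent gene Rpp14 had an interaction of 0.45 (unadjusted p = 0.00051, adjusted p = 0.67, edgeR). Groups of 3 libraries were not searched for outlying values.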

How the results depend on the processing

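Across 20 alternatives, genes called higher in sErbB4 against DAPT + sErbB4 numbered 898 (limma on log2(CPM + 2)) to 1227 (unnamed loci kept) and genes called lower 507 (limma) to 867 (without sErbB4 replicate 1), against 1120 and 712. Genes called in vehicle against DAPT numbered 1386 to 1976, against 1813. The interaction had 4 genes by DESeq2 against 1 by edgeR, and 1 to 3 as single libraries were left out. It was not fitted with the 6 libraries compared. With the replicate block 1072 genes were called higher and 706 lower, 1750 in vehicle against DAPT and 1 in the interaction, so it moved none of these by over 1.5 times. Among the lists it changed the circadian genes called lower from 3 to 1 and the proneural and neuronal factors called lower from 2 to 4. The median log2 FC of all genes stayed between -0.014 and -0.0037. Of 158 called genes followed through the alternatives, 147 kept call and direction in all of them, 0 changed direction in another scaling, and the 11 that lost a call in at least 1 were Aldh1a1, Dbp, Grin1, Grin2a, Grin2b, Nfil3, Nlgn1, Per3, Rpp14, Stmn2 and Uchl1. The genes followed are the named ones. Genes whose call was lost with a single library were mostly not named, so these counts do not describe all 1832 calls. With only the 6 libraries compared, Grin2a (adjusted p = 0.09, edgeR) and Grin2b (0.063) were not called. Of uncalled genes, Slc38a2 ranged from -0.0231 to 0.0806 and Per1 from -0.0695 to 0.0452 on the log2 scale as single libraries were left out. The causes were not tested. At this depth a gene with fewer than 3 counts in a library cannot be told from one at 0.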
